A study of Mus musculus with 12 samples.

Results

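The immunoglobulin gene segments described here were 157 genes that carry a V, J or C biotype of the immunoglobulin loci in the GENCODE M21 annotation and that held at least 60 raw counts over the 12 libraries together. The files list 262 annotated segments of these kinds and of the D kind among 46078 genes, and 222 of them had a count in any library. The 157 comprised 77 heavy V, 62 kappa V, 3 lambda V, 10 constant and 5 J segments, and no D segment reached the limit. They held 99.6% of all counts on annotated segments. At the limit, Ighv9-2 entered with 63 counts and Igkv4-80 with 64, whereas Igkv5-45 and Igkv6-14 stayed out with 59 each.

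The libraries came from male C57BL/6 mice, whose proximal ileum was scraped to collect its epithelium. They were gavaged 7 times, once every 4 days, from 28 days of age, and the tissue was taken at 56 days of age. They received sesame oil vehicle or 3, 10 or 30 µg/kg TCDD (the most potent chlorinated dioxin and a strong agonist of AhR, the aryl hydrocarbon receptor), with 3 libraries in each of 4 groups. The study asked how ileal gene expression follows the dose. The labels give no replicate numbers, so replicates were numbered here in accession order, and nothing in the labels says that each library is a separate animal, so p-values measure the spread between these libraries. Gene counts per library were between 11695887 and 22180274, of which the members took 0.082% to 0.275%. The labels describe no sort of the scraped cells. Genes of enterocytes, the absorptive cells, summed to between 22454 and 34917 CPM (counts scaled to library size with the trimmed mean of M values, TMM) in every library, and genes of plasma cells and B cells were present beside them. The AhR target Cyp1a1 was between 19.0 and 27.5 CPM in vehicle and between 2608 and 3251 CPM after 30 µg/kg.

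An antibody chain is encoded by a V segment joined to J (and, in heavy chains, D) segments by recombination in each B cell precursor, and then spliced to a constant segment that sets the class. IgM and IgD (Ighm, Ighd) are the classes of naive B cells, and switching leads to IgG (Ighg1, Ighg2b, Ighg2c) or IgA (Igha). In the small intestine most plasma cells of the lamina propria secrete dimeric IgA, which is held together by the J chain (Jchain) and carried through the epithelium by the polymeric immunoglobulin receptor (Pigr). Light chains are kappa or lambda, and in mice kappa predominates. All daughters of one plasma cell clone use the same V segments, so the V segments in a tissue sample reflect which clones it holds and how much each transcribes.

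Reads from similar V segments can be shared. The germline coding sequence of a heavy V member was on median 95.5% identical to its nearest other heavy V segment or pseudogene, and 43 of 77 were at least 95% identical to one. Among kappa V members the median was 95.04%, and 31 of 62 reached that level. When each coding sequence was cut into all windows of 50 bases, a median of 77.7% of heavy V windows and 74.4% of kappa V windows occurred in no other annotated immunoglobulin gene. The deposited counts leave out reads that aligned to more than 1 place, so counts of alike segments can be too low, and mutated V regions of expressed antibodies may align to a neighbour. The following sequences are the last 300 bases of the germline coding sequences of GENCODE M21 transcripts (GRCm38), which all lie on the minus strand of chromosome 12. They are shown because Ighv1-26 was the heavy V segment with most counts, Ighv1-12, Ighv1-15, Ighv1-18 and Ighv1-19 are neighbours in the locus that come up below, and Ighv1-64 was the 1 segment called higher after 30 µg/kg. Capitals mark bases that differ from Ighv1-26, which is therefore in lower case throughout.
Ighv1-26: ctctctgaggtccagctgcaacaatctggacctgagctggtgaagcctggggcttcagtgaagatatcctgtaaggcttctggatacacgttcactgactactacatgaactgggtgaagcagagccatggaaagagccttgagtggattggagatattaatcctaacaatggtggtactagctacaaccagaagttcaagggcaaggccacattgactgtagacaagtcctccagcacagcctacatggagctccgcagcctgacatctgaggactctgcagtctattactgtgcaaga
Ighv1-12: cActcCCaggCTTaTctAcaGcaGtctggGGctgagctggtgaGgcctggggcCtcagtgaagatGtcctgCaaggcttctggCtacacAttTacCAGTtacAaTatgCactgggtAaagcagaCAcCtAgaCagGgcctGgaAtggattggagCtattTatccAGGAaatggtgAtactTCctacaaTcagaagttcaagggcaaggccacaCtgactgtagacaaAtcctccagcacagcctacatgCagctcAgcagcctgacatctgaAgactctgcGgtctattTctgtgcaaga
Ighv1-15: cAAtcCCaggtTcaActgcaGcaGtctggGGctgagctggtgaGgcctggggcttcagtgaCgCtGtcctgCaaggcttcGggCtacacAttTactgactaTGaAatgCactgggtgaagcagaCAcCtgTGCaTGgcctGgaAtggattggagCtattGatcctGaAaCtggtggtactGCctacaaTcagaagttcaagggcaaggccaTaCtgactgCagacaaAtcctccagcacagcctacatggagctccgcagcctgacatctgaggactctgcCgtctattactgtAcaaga
Ighv1-18: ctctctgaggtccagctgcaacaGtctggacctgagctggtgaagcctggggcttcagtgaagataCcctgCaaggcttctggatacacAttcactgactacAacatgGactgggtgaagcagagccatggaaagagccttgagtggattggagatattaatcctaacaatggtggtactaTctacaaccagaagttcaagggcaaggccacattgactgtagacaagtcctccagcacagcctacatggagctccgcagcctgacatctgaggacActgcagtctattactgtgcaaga
Ighv1-19: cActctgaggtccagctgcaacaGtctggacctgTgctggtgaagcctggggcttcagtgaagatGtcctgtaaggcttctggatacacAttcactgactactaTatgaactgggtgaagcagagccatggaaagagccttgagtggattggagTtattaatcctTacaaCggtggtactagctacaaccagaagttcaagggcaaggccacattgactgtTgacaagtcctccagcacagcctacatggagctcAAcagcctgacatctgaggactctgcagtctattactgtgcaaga
Ighv1-64: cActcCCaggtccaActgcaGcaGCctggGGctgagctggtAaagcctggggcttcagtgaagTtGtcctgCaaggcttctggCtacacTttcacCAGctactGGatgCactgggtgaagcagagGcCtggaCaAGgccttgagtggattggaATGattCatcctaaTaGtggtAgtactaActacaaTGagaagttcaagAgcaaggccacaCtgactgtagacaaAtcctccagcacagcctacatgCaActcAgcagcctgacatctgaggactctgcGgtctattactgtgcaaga
Ighv1-18 and Ighv1-19 differed from Ighv1-26 at 11 and 13 of all 351 coding bases, whereas Ighv1-12, Ighv1-15 and Ighv1-64 differed at 58, 52 and 56. The kappa segments called lower after 30 µg/kg, Igkv3-12 and Igkv6-17 (plus strand of chromosome 6), are shown in the same way because each has a close relative. Capitals mark bases that differ from Igkv3-7 in the first and from Igkv6-25 in the second.
Igkv3-12: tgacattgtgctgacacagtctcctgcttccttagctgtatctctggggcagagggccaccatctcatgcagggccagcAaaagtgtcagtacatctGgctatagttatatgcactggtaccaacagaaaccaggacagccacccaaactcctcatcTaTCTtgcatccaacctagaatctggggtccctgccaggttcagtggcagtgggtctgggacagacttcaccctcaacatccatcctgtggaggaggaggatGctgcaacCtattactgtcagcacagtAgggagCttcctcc
Igkv6-17: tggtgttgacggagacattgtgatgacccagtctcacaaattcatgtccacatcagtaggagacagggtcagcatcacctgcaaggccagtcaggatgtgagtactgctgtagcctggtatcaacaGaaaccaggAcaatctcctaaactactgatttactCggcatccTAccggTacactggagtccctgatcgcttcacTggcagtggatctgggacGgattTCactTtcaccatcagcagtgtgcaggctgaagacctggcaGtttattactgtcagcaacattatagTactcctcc
Igkv3-12 differed from Igkv3-7 at 12 of 359 bases and had 41.6% unique windows. Igkv6-17 differed from Igkv6-25 at 15 of 347 bases and had 58.7%.

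Constant segments carried most of the signal, and Igha led them. Over the 12 libraries Igha averaged 940.4 CPM and Igkc, the kappa constant region, 318.9 CPM. Per kilobase of annotated exon, Igkc was the higher at 599.4 CPM against 352.5 for Igha, which includes a long membrane form. Iglc1 was the main lambda constant segment at 20.9 CPM. Ighm followed at 10.2 CPM and Ighg2b at 5.63 CPM. Among V segments, Ighv1-26 had the highest mean at 22.0 CPM, ahead of Ighv3-6, Ighv1-15 at 7.69, Ighv1-55 at 7.36 and Ighv9-3 at 6.89. The highest kappa V segments were Igkv6-15 at 14.3 CPM, Igkv8-27 at 13.7, Igkv5-48 at 9.82, Igkv10-96 at 5.94 and Igkv6-23 at 5.77. Of the lambda V segments, Iglv1 averaged 10.2 CPM, while Iglv3 and Iglv2 were at 0.514 and 0.476.

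The summed levels of heavy V, kappa V and constant segments were lower on average after 3 and 10 µg/kg than in vehicle and nearer the vehicle mean after 30 µg/kg, with libraries that overlapped throughout. Constant segments summed to 1115, 1709 and 2250 CPM in vehicle replicates 1, 2 and 3. They summed to 783, 1199 and 1176 CPM after 3 µg/kg and to 1318, 880 and 629 CPM after 10 µg/kg. After 30 µg/kg the sums were 1724, 1431 and 1471 CPM. Thus 1 library of 3 µg/kg and 2 of 10 µg/kg lay below the lowest vehicle library, and all 3 of 30 µg/kg lay inside the vehicle range. Heavy V segments summed to 218 ± 71.4 CPM in vehicle (SD, n = 3), 161 ± 42.7 after 3 µg/kg, 128 ± 42.3 after 10 µg/kg and 219 ± 38.1 after 30 µg/kg. Kappa V segments summed to 184 ± 87.5, 118 ± 32.1, 98.5 ± 33.1 and 169 ± 32.8 CPM in the same order of groups. The sums of lambda V segments were 13.3 ± 4.28, 8.90 ± 1.46, 11.4 ± 7.34 and 11.2 ± 5.24 CPM, so their mean after 30 µg/kg was no nearer to vehicle than after 10 µg/kg. The 5 J segments, which are very short, summed to 4.30 ± 2.32, 2.82 ± 0.486, 2.01 ± 1.06 and 2.78 ± 0.129 CPM. In a bulk sample, fewer cells of a type and less RNA per cell cannot be told apart. The means of 5 smooth muscle genes, which mark the gut wall below the epithelium, moved in the same order: they summed to 94.0 ± 63.7 CPM in vehicle (SD, n = 3), 46.5 ± 30.4 after 3 µg/kg, 24.0 ± 5.64 after 10 µg/kg and 70.1 ± 37.9 after 30 µg/kg. By replicate the muscle sums were 166, 47.1 and 68.4 CPM in vehicle and 13.3, 53.5 and 72.9 after 3 µg/kg. They were 23.7, 29.8 and 18.6 after 10 µg/kg and 76.0, 105 and 29.7 after 30 µg/kg. In vehicle and after 30 µg/kg the replicate with the highest muscle sum had the lowest constant sum. After 3 and 10 µg/kg the replicate with the lowest muscle sum did. All 5 muscle genes had an unadjusted p under 0.05 after 10 µg/kg, and edgeR called 0 at any dose, with 0 at that p after 3 or 30 µg/kg. Their part in the class sums was not tested.

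**Figure D1:**
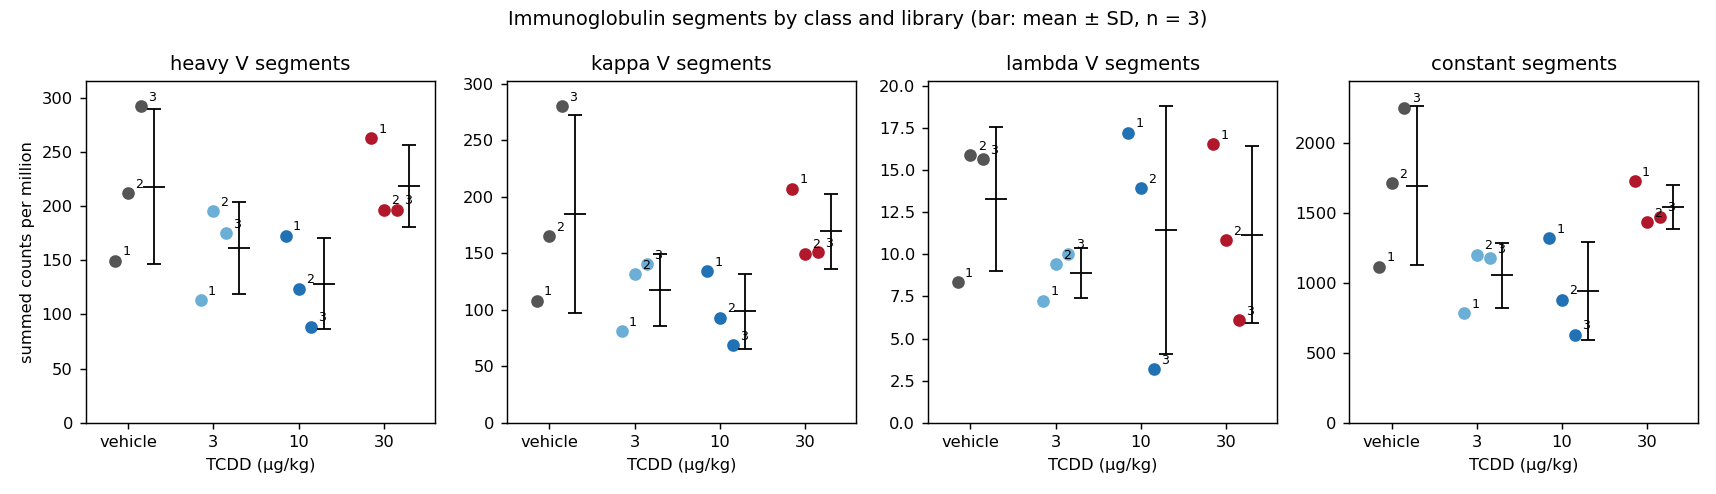
Summed CPM (TMM scaling) of the heavy V, kappa V, lambda V and constant members against the TCDD dose. Each point is 1 library with its replicate number, and the bar gives the mean ± SD of 3 libraries; the libraries of 10 µg/kg spread from 629 to 1318 CPM in the constant class, and those of 30 µg/kg from 1431 to 1724.

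Short protein-coding genes were on median higher after 30 µg/kg. The V members have exon lengths of 338 to 480 bases, and 43 other protein-coding genes tested lie in that range. Their median log2 change against vehicle was 0.10 after 3 µg/kg, 0.38 after 10 µg/kg and 1.44 after 30 µg/kg, while it was -0.01 after 30 µg/kg over 13193 longer protein-coding genes. The heavy V members tested had a median of -0.16 at that dose and the kappa V members one of -0.08. Libraries of 30 µg/kg also stood apart in the reads that were not assigned, with 25.0% to 25.4% of entries in no gene and 36.3% to 38.8% aligned to several places, against 28.0% to 30.1% and 31.4% to 34.6% in the others. Whether length or multiple alignment set the V levels was not tested.

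Of the members, 139 passed the filter on low counts (70 heavy V, 55 kappa V, 3 lambda V, 9 constant and 2 J segments) and were tested among 15823 genes with edgeR's quasi-likelihood test. A gene was called at a Benjamini-Hochberg adjusted p under 0.05 and a change of at least 1.5-fold. After 3 µg/kg 1 member was called, Ighv1-19, which was lower, against 0.228% of all genes (0.171% lower and 0.0569% higher). None was called after 10 µg/kg, where 0.613% of all genes were (0.126% lower and 0.487% higher). At an unadjusted p under 0.05 by edgeR there were 28 members after 3 µg/kg, 43 after 10 µg/kg and 34 after 30 µg/kg. No share of all genes at that limit is given here, so these counts are not read as a result about the members. DESeq2 called 8 members after 10 µg/kg, all lower, and 262 of all 15823 genes. After 30 µg/kg 7 members were called, against 3.97% of all genes. They were Ighv1-64, which was higher, and Ighg2b, Igkv3-12, Ighv1-12, Igkv6-17, Ighv1-19 and Ighv1-15, which were lower. Their number ran from 1 without vehicle replicate 3 to 13 without vehicle replicate 1, where 438 of 16193 and 655 of 16238 genes were called. By direction, 6 of 139 members were called lower where 0.891% of all genes were, and 1 was called higher where 3.08% were. This split moved with the method: DESeq2 called 11 lower and 5 higher, and the fit to both groups alone called 4 lower and 4 higher. Of all genes, DESeq2 called 805 of 15823 and the fit to both groups alone 573 of 15608. The trend over dose rank called 6 members, against 3.29% of all genes (0.752% lower and 2.53% higher): Ighg2b, Ighg1, Igkv3-12, Ighv1-12 and Ighv1-15 as lower and Ighv1-64 as higher. Between 3 and 10 µg/kg edgeR called 0 members, with 10 at an unadjusted p under 0.05, and DESeq2 called 1, against 0.158% of all genes by edgeR (0.145% higher and 0.0126% lower) and 43 of 15823 by DESeq2. Between 10 and 30 µg/kg 2 were called, both higher, against 2.77% of all genes (2.17% higher and 0.607% lower). Those 2 were Ighv1-81, with a log2 change of 2.65 (SE 0.49, adjusted p = 0.0101), and Igkv10-94, with 2.36 (SE 0.55, adjusted p = 0.0313), and both are named after their values were seen. Without 1 of the 6 libraries the call of Igkv10-94 was lost in every fit, and that of Ighv1-81 in none. Over dose rank, 12 fits left out 1 library each. The call held in all 12 for Ighv1-15 and Igkv3-12, in 11 for Ighg2b, 10 for Ighv1-64, 8 for Ighv1-12 and 4 for Ighg1.

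Counted by libraries rather than by the test, 23 members (16.5%) had all 3 libraries of 10 µg/kg below all 3 of vehicle, where 11.0% of all genes did, and 1 had them above, where 11.9% did. After 3 µg/kg 13 members lay wholly below and 1 wholly above, against 6.84% and 8.58% of all genes. After 30 µg/kg 13 lay wholly below and 10 wholly above, against 12.5% and 14.2%. The median log2 change against vehicle of the heavy V members was -0.53 after 3 µg/kg and -0.87 after 10 µg/kg. That of the kappa V members was -0.93 and -1.07, and that of the 9 constant members was -0.93, -0.98 and, after 30 µg/kg, -1.08. Over all genes the medians lay between -0.02 and 0.00. All 3 comparisons share the vehicle libraries.

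The minor heavy chain classes were low after 30 µg/kg and spread widely among the vehicle libraries. Ighg2b, the constant region of IgG2b, was at 1.30, 10.9 and 38.2 CPM in vehicle. It was at 1.53, 1.24 and 0.712 CPM after 30 µg/kg. The group therefore overlapped with vehicle replicate 1, and the log2 change was -3.85 (SE 0.93, adjusted p = 0.0307 by edgeR). The call held in 1 of 6 fits without 1 library, the one without vehicle replicate 1, and the change was -2.39 without vehicle replicate 3. It was also lost with limma-voom, a robust fit and a fit to both groups alone. Ighg1 was at 0.282, 1.85 and 2.63 CPM in vehicle and at 0.153, 0.0889 and 0.219 CPM after 30 µg/kg. Its trend over dose passed the test with a log2 change of -3.46 from the lowest to the highest rank (SE 0.87, adjusted p = 0.0356 by edgeR), while the comparison of 30 µg/kg with vehicle did not (adjusted p = 0.0821). The trend call held in 4 of 12 fits without 1 library. Ighg2c, which did not pass the filter, had 7, 22 and 36 counts in vehicle and 0 in each library of 30 µg/kg. Taking a floor of 3 counts in each library, its vehicle mean was at least 5.66-fold higher. That floor averaged 0.195 CPM after 30 µg/kg. Vehicle replicate 1 was at 0.395 CPM and the other vehicle libraries at 1.02 and 1.89, so the bound rests mostly on those others. Without the vehicle libraries, neither Ighg1 nor Ighg2c would have reached the limit for members. Their low values after treatment relative to vehicle are thus partly set by how members were chosen.

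IgM and IgD segments were ordered like Ighg2b. Ighm was at 4.12, 15.4 and 38.0 CPM in vehicle and at 4.19, 4.18 and 4.93 CPM after 30 µg/kg. Its log2 change was -2.11 (SE 0.67, adjusted p = 0.0888 by edgeR). Ighd was at 0.226, 4.07 and 16.5 CPM in vehicle, and at 0.0511, 0.444 and 1.10 CPM after 30 µg/kg, with a log2 change of -3.69 (SE 1.31, adjusted p = 0.124 by edgeR). Vehicle replicate 1 thus lay with the high-dose libraries for both, and vehicle replicate 3 was the highest of all 12.

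Genes of B cells moved with these segments. The 8 genes Ms4a1, Cd79a, Cd79b, Pax5, Cd22, Fcer2a, Cr2 and Blk summed to between 4.68 and 87.1 CPM in vehicle. They summed to between 7.75 and 29.4 CPM after 3 µg/kg, between 3.49 and 21.5 after 10 µg/kg, and between 5.33 and 8.21 after 30 µg/kg. Cd74 was left out of the sum after its values were seen, since it was at 1313 to 1816 CPM in every library and epithelial cells can express it. The 6 libraries with the highest sums, at 16.4 CPM or more, were replicates 2 and 3 of vehicle and replicates 1 and 2 of 3 and of 10 µg/kg. The same 6 libraries were the 6 highest for Ighd, Ighm, Ighg2b and Ighg1, 5 of them were among the 6 highest for Ighg2c, and 3 were among the 6 highest for Igha. For Ighg1 this rests on a near tie. The lowest of its 6 was at 0.290 CPM with 4 counts, and vehicle replicate 1 was at 0.282 with 5. For Ighg2b the lowest of the 6 was at 2.38 CPM and the highest other library at 1.53. Blk and Cr2, named after their values were seen, were both at 0 in vehicle replicate 1, in replicate 3 of 10 µg/kg and in replicate 1 of 30 µg/kg. Blk was also at 0 in replicate 3 of 3 µg/kg, and Cr2 in replicate 2 of 30 µg/kg. Of the 9 B cell genes with Cd74, edgeR called 0 at any dose against vehicle, with 0, 2 and 8 at an unadjusted p under 0.05 in the order of the doses. Cd22, an inhibitory receptor of B cells, was called lower over dose rank (log2 change -2.53, SE 0.65, adjusted p = 0.0398 by edgeR). The part of B cell content in the changes of Ighg2b, Ighg1, Ighm and Ighd was not tested.

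**Figure D2:**
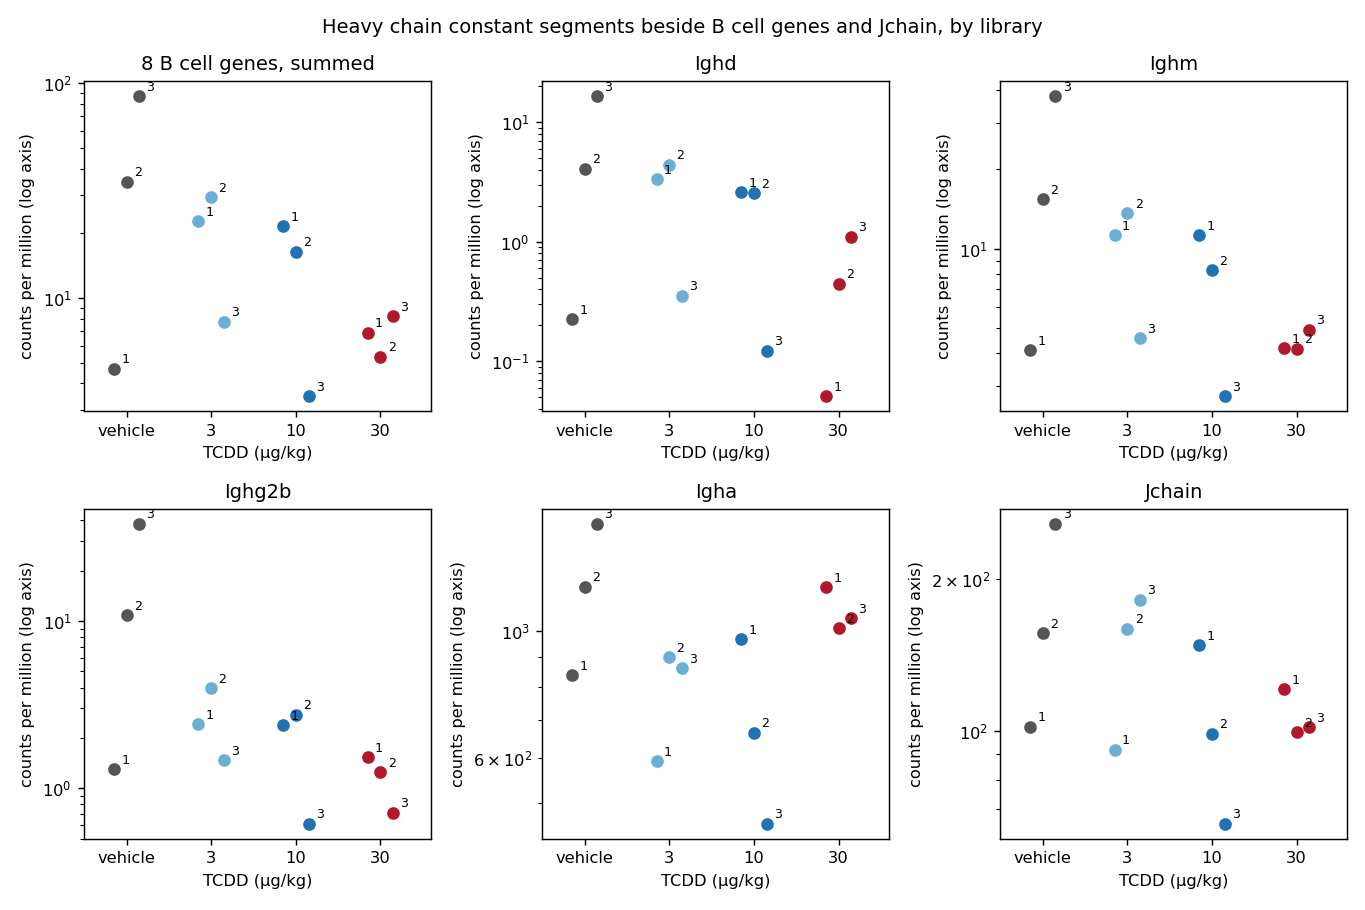
CPM on a log axis, by library and TCDD dose, of the sum of 8 B cell genes, of Ighd, Ighm, Ighg2b and Igha, and of Jchain. Each point is 1 library with its replicate number; in the panels of B cell genes, Ighd, Ighm and Ighg2b the 3 libraries of 30 µg/kg lie beside vehicle replicate 1 and below vehicle replicates 2 and 3, while in the Igha panel they lie inside the vehicle range.

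Over all 12 libraries Igha did not share that order, since 3 of the 6 libraries were among its 6 highest. Within vehicle and within 10 µg/kg its replicates ran in the order of Ighm and of the B cell sum. Igha was at 836.7, 1197 and 1544 CPM in vehicle, at 591.6, 900.4 and 860.6 after 3 µg/kg, at 968.4, 664.4 and 459.7 after 10 µg/kg and at 1195, 1013 and 1054 after 30 µg/kg. The log2 change against vehicle was -0.60 (SE 0.26) after 3 µg/kg, -0.77 (SE 0.27) after 10 µg/kg and -0.13 (SE 0.26) after 30 µg/kg, with adjusted p = 0.417 by edgeR, 0.197 and 0.821. As a share of heavy chain constant counts, Igha held 99.3%, 97.3% and 94.1% in vehicle and 99.5%, 99.4% and 99.3% after 30 µg/kg. Each of these shares has a 95% Wilson interval of less than 1 percentage point, which covers counting error only. The spread among vehicle libraries was therefore larger than the counting error, and vehicle replicate 1 reached 99.3%.

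Light chains changed less clearly. Igkc was at 247.1, 433.3 and 556.3 CPM in vehicle and at 489.1, 393.0 and 394.2 CPM after 30 µg/kg. Its log2 changes were -0.85 (SE 0.31) after 3 µg/kg, -0.98 (SE 0.31) after 10 µg/kg and 0.05 (SE 0.30) after 30 µg/kg, and none was called by edgeR (adjusted p = 0.327, 0.165 and 0.955). Iglc1, the lambda constant region that pairs with Iglv1, was at 17.9, 40.0 and 39.4 CPM in vehicle and at 22.1, 14.2 and 9.47 CPM after 30 µg/kg, with a log2 change of -1.08 (SE 0.50, adjusted p = 0.232 by edgeR). Lambda segments made up 9.24%, 9.62% and 8.65% of light chain constant counts in vehicle. They made up 6.38%, 4.55% and 3.99% after 30 µg/kg, below every vehicle library. After 3 µg/kg the share was between 8.58% and 11.4%. It ran from 4.17% to 14.2% after 10 µg/kg, a wider range than over the other doses together. Iglc2 and Iglc3, whose coding sequences are 96.5% identical, had log2 changes of -0.30 (SE 0.53) and 0.02 (SE 0.45) after 30 µg/kg. Of the lambda V segments, Iglv1 had a log2 change of -0.21 (SE 0.46), and Iglv2 and Iglv3, with under 2 CPM in every library, had -0.09 (SE 1.09) and -0.76 (SE 0.86). Exon length differs here as well: Igkc spans 532 bases, and 82 protein-coding genes of 426 to 665 bases had a median log2 change of 0.80 after 30 µg/kg. Iglc1, Iglc2 and Iglc3 span 454, 612 and 452 bases. Over 43 protein-coding genes of 338 to 480 bases the median was 1.44. The part of exon length in the lambda share was not tested.

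The heavy V segments called lower after 30 µg/kg stand next to each other. In the order of members along the locus, Ighv1-12, Ighv1-15, Ighv1-18 and Ighv1-19 take places 41 to 44 of 77, at positions 114615850 to 114709135 of chromosome 12 (GRCm38). Ighv1-18, which was not called, is named after its values were seen because it lies between the others. Ighv1-19 was at 10.9, 12.0 and 5.41 CPM in vehicle. It was at 0.679, 2.22 and 1.12 CPM after 3 µg/kg, at 4.32, 4.50 and 4.35 after 10 µg/kg and at 2.40, 1.42 and 1.81 after 30 µg/kg. All 9 treated libraries lay below all 3 vehicle libraries, but not in the order of the doses. The log2 changes were -2.78 (SE 0.38, adjusted p = 0.00735 by edgeR) after 3 µg/kg, -1.11 (SE 0.34, adjusted p = 0.161) after 10 µg/kg and -2.30 (SE 0.36, adjusted p = 0.00257) after 30 µg/kg. The call after 30 µg/kg held in 6 of 6 fits that left out 1 library, and that after 3 µg/kg in 5 of 6, being lost without replicate 3 of that dose (adjusted p = 0.0526). Ighv1-26, from which it differs at 13 bases, had a log2 change of 0.78 (SE 0.34, adjusted p = 0.204) after 30 µg/kg.

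Ighv1-15 was at 6.49, 17.5 and 24.2 CPM in vehicle and was the leading heavy V segment of vehicle replicate 3. It was at 2.81, 4.35 and 1.31 CPM after 30 µg/kg, below all vehicle libraries, with a log2 change of -2.56 (SE 0.52, adjusted p = 0.0122 by edgeR). Ighv1-12 was at 1.75, 15.6 and 7.09 CPM in vehicle and at 0.817, 1.69 and 1.10 CPM after 30 µg/kg. Its groups did not overlap, but vehicle replicate 1 lay only just above. The log2 change was -2.81 (SE 0.75, adjusted p = 0.0451 by edgeR). Ighv1-18 was at 0.959, 3.38 and 12.0 CPM in vehicle and at 1.02, 0.978 and 1.86 CPM after 30 µg/kg. Its groups overlapped and its log2 change was -2.06 (SE 0.67, adjusted p = 0.0958 by edgeR). On both sides of the 4, the next members were not called, with log2 changes of 0.46 for Ighv1-9 and -0.51 for Ighv1-22. The 37 tested members of the Ighv1 family had a median of -0.51 and ranged from -3.03 to 2.85, so the lowest value in the family was not among the 4. The 4 did not peak in the same vehicle library: Ighv1-12 and Ighv1-19 were highest in replicate 2, and Ighv1-15 and Ighv1-18 in replicate 3. Among their sequences, Ighv1-18 and Ighv1-19 are 94.9% identical, Ighv1-12 and Ighv1-15 are 88.0% identical, and Ighv1-12 and Ighv1-18 are 83.8% identical. Without 1 library, Ighv1-15 lost its call if vehicle replicate 3 or replicate 1 or 3 of 30 µg/kg was the one left out. Ighv1-12 kept its call only without vehicle replicate 1.

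**Figure D3:**
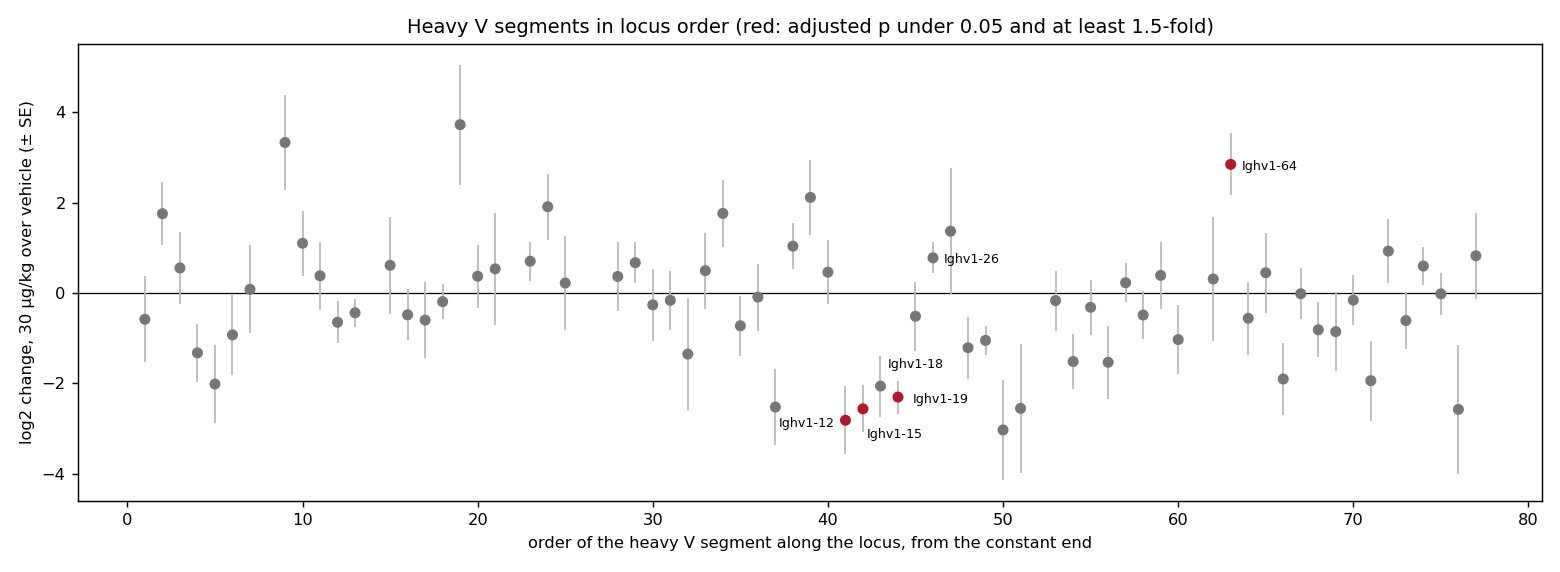
Log2 change after 30 µg/kg TCDD over vehicle (± SE, edgeR, n = 3 per group) of the 70 heavy V members tested, against their place in the locus counted from the constant end. Red points were called; Ighv1-12, Ighv1-15 and Ighv1-19 lie between -2.81 and -2.30 side by side with Ighv1-18, and Ighv1-64 lies at 2.85 farther along.

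Ighv1-64 rose. It was at 2.14, 2.31 and 2.84 CPM in vehicle and at 3.63, 31.4 and 18.3 CPM after 30 µg/kg, where replicate 1 was far below replicates 2 and 3. It was the leading heavy V segment of replicate 2 with 15.9% of that library's heavy V counts. Its log2 change was 2.85 (SE 0.69, adjusted p = 0.0298 by edgeR), and 1 of 6 fits without 1 library kept the call, the one without replicate 1 of 30 µg/kg. Limma-voom and the robust fit did not make it. The neighbours Ighv1-63 and Ighv1-66, named after their values were seen, had log2 changes of 0.31 and -0.56. Igkv8-27, 1 of the leading kappa segments, was at 4.34, 6.06 and 7.83 CPM in vehicle. It was at 18.7, 26.5 and 31.9 CPM after 30 µg/kg, above every vehicle library. The log2 change of 2.07 (SE 0.57) missed the threshold with edgeR (adjusted p = 0.0520) and passed it with DESeq2 and limma-voom.

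Igkv3-12, called lower after 30 µg/kg, had few counts. It had 16, 12 and 33 counts in vehicle, 5, 5 and 11 after 3 µg/kg, 0, 2 and 2 after 10 µg/kg and 0, 2 and 2 after 30 µg/kg. The counts at 10 and 30 µg/kg were thus under the floor of 3 in every library. Without the vehicle libraries, Igkv3-12 would not have reached the limit for members. Its low values after treatment relative to vehicle are thus partly set by how members were chosen. Its fitted log2 change was -3.55 (SE 0.78, adjusted p = 0.0184 by edgeR). Its relative Igkv3-7 held 41 counts over the 12 libraries and was below the limit for members. Igkv6-17 was at 3.67, 4.91 and 3.94 CPM in vehicle and at 1.17, 2.49 and 0.821 CPM after 30 µg/kg. The groups did not overlap, and the log2 change was -1.55 (SE 0.39, adjusted p = 0.0355 by edgeR). Its relative Igkv6-25 had a log2 change of -0.64 (SE 0.74, adjusted p = 0.668). Igkv3-12 lost its call without vehicle replicate 3 or replicate 1 or 3 of 30 µg/kg. Igkv6-17 lost it without any 1 of these or vehicle replicate 2.

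**Figure D4:**
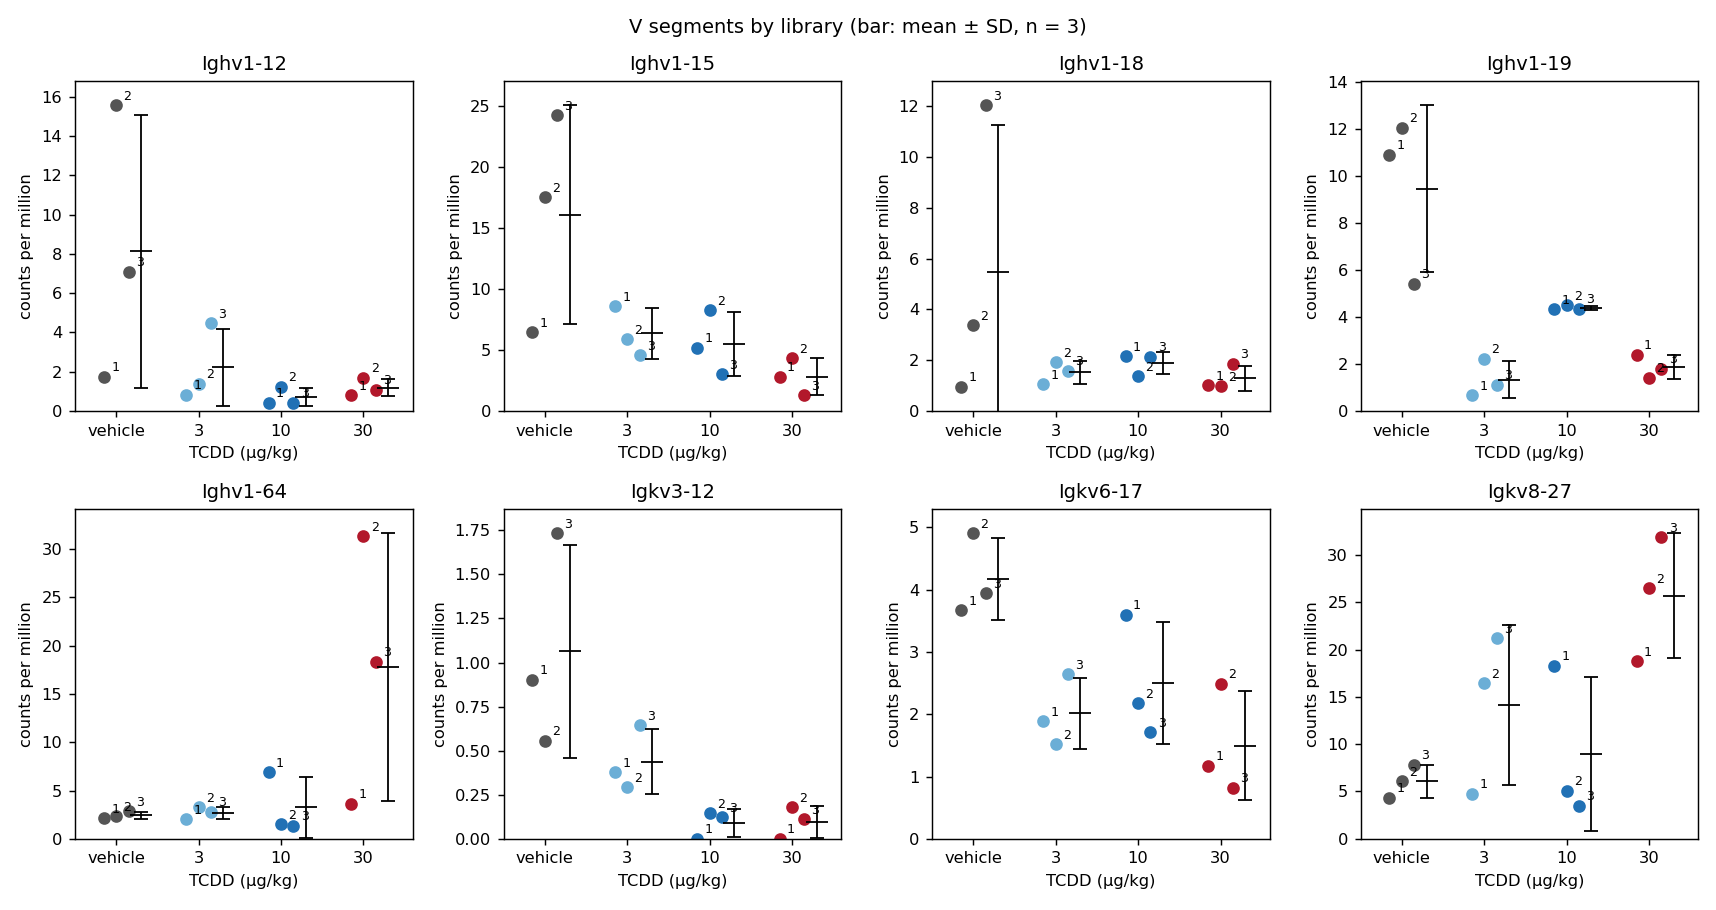
CPM of 8 V segments, by library and TCDD dose. Each point is 1 library with its replicate number, and the bar gives the mean ± SD of 3 libraries, drawn from 0 upward; all treated libraries of Ighv1-19 lie below the vehicle libraries, and Ighv1-64 is high in 2 of the 3 libraries of 30 µg/kg.

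Each library used most V segments, and fewer of them took the bulk of heavy V counts after 30 µg/kg. Ighv1-26 led the heavy V counts in 9 of 12 libraries with 8.77% to 16.8%. The other leaders were Ighv1-15, Ighv3-6 and Ighv1-64, in 1 library each. Kappa V counts had 6 different leaders: Igkv6-15, Igkv8-27 and Igkv5-48 led 3 libraries each, and Igkv4-72, Igkv8-21 and Igkv17-127 led 1 each. In vehicle the leading kappa segment held 8.33% to 9.09% of kappa V counts, and in the treated libraries between 7.77% (Igkv17-127, replicate 3 of 10 µg/kg) and 23.7% (Igkv6-15, replicate 2 of 3 µg/kg). The effective number of segments is the inverse Simpson index, which is corrected here for the number of counts and equals the number of segments if all are used equally. For heavy V segments it was 29.2, 23.9 and 30.6 in vehicle and 18.5, 16.2 and 16.0 after 30 µg/kg, without overlap, in a design where 3 against 3 libraries cannot go below p = 0.1 in an exact test. After 3 µg/kg it was between 19.9 and 25.3, and after 10 µg/kg between 21.7 and 31.5. For kappa V segments it was 26.6, 28.7 and 25.3 in vehicle, and every treated library lay lower, with 24.7, 11.9 and 11.9 after 3 µg/kg, 19.4, 16.0 and 23.7 after 10 µg/kg and 19.6, 16.0 and 12.0 after 30 µg/kg. The 5 most used heavy V segments of each library held 31.0% to 37.4% of its heavy V counts in vehicle and 43.4% to 46.8% after 30 µg/kg.

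**Figure D5:**
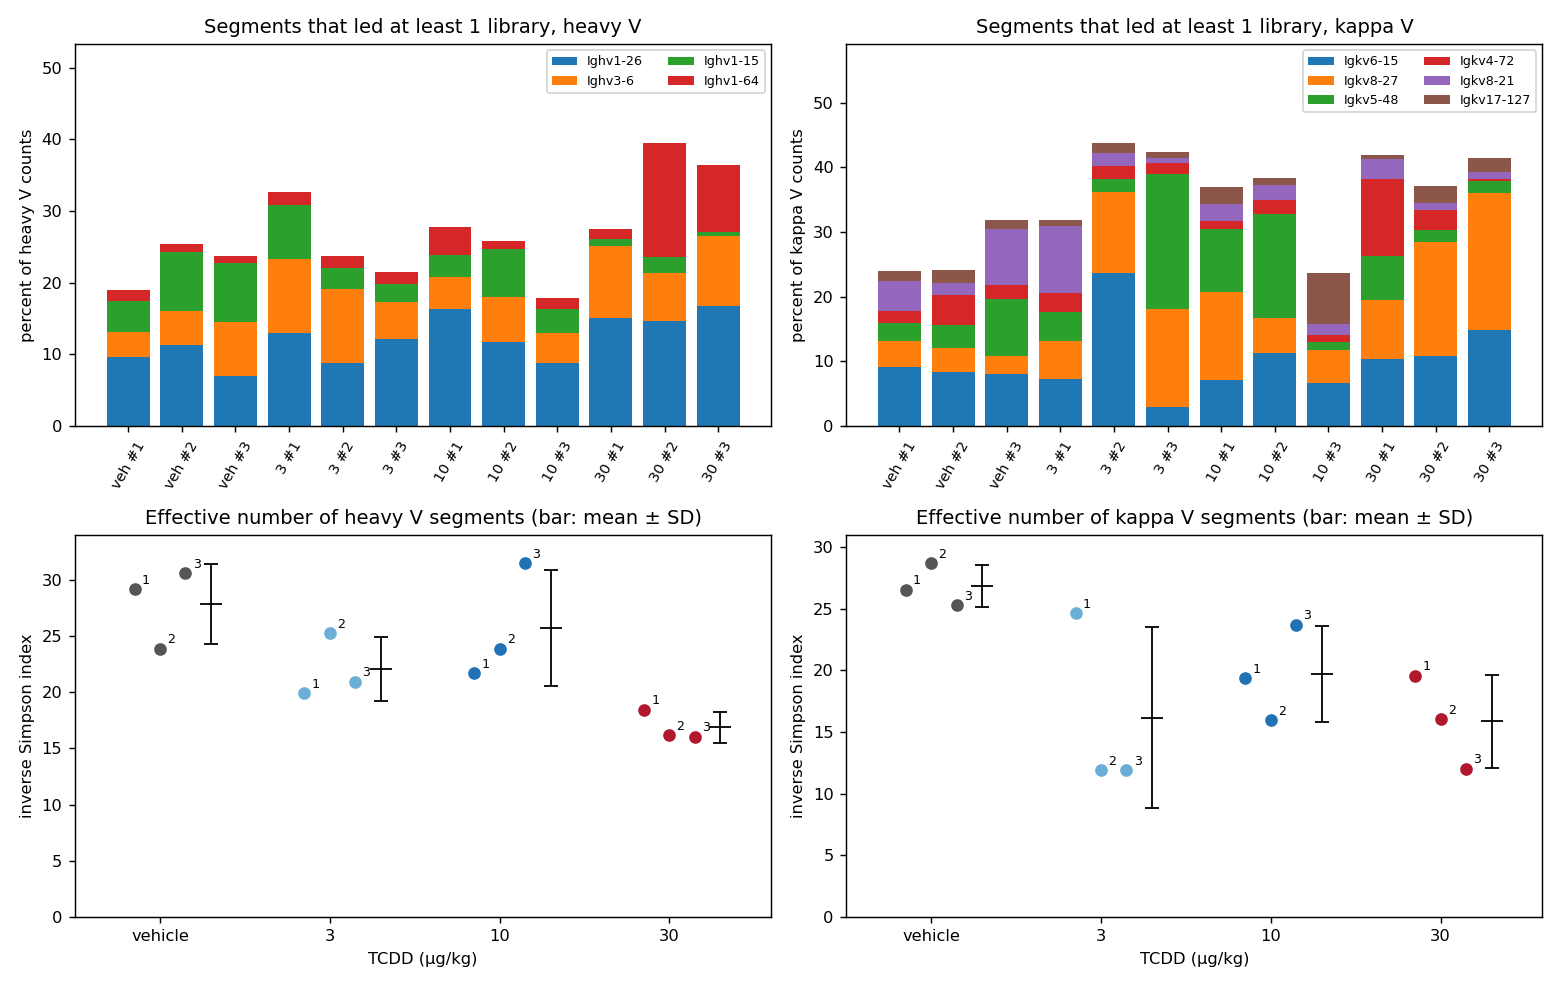
Top, percent of the heavy V or kappa V counts of each library held by the segments that led at least 1 library (veh, vehicle; 3, 10 and 30, the dose in µg/kg; #, replicate). Bottom, effective number of V segments (inverse Simpson index) by dose, with 1 point per library and the mean ± SD; the heavy V values of 30 µg/kg, 16.0 to 18.5, lie below those of vehicle, 23.9 to 30.6.

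Segments varied far more between libraries of the same group than other genes did. The median biological coefficient of variation fitted by edgeR was 60% for heavy V, 57% for kappa V and 46.1% for constant members, against 15.6% over all genes and 19.4% over 10012 other genes in the range of mean counts of the V members. A single library held more than 33% of the summed CPM for 19 of 77 heavy V and 20 of 62 kappa V members, and for 0.502% of 10953 other genes in that range. Members entered on counts summed over all libraries, so some reached the limit only through their highest library. The other genes were taken by their mean over the same libraries. Their median mean count was 50.3, against 21.9 for heavy V and 24.0 for kappa V members. Chosen after their values were seen, Ighv2-6 had 82 counts in replicate 1 of 30 µg/kg and at most 6 in any other library. Likewise, Ighv5-9-1 had 499 counts in that library and at most 47 elsewhere, and Ighv3-4 had 175 in vehicle replicate 3 and at most 18 elsewhere. Without these libraries, Ighv2-6 and Ighv3-4 would not have reached the limit of 60 counts. Ighg1, Ighg2c and Igkv3-12 would not have reached it without the vehicle libraries. Vehicle replicate 3 was the highest library of 56 of the 157 members, and replicate 1 of 30 µg/kg of 21. The Pearson correlation of heavy V shares across the 77 segments had a median of 0.70 over 12 pairs of the same group and 0.64 over 54 pairs of different groups, and for the 62 kappa V segments the medians were 0.52 and 0.54. Within groups the kappa V median was 0.70 after 30 µg/kg, where the lowest pair was at 0.65, and between 0.46 and 0.49 in the other groups. These correlations are descriptions across segments that share a library and its depth.

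Plasma cell genes did not pass the test with the segments. Of 11 genes on that list, 10 were tested and edgeR called 0 at any dose, with 2, 4 and 3 at an unadjusted p under 0.05 in the order of the doses. Mzb1, a chaperone of antibody assembly in plasma cells, had a log2 change of -1.17 (SE 0.40, adjusted p = 0.305) after 3 µg/kg, -1.66 (SE 0.42, adjusted p = 0.0996) after 10 µg/kg and -1.11 (SE 0.40, adjusted p = 0.124) after 30 µg/kg. Derl3, which acts in the disposal of misfolded secretory proteins, had -1.59 (SE 0.52) after 10 µg/kg and -0.38 (SE 0.48) after 30 µg/kg. Irf4, a transcription factor of plasma cells, had -1.10 (SE 0.46), and Pou2af1, a transcriptional coactivator of B cells, had -0.66 (SE 0.50) after 30 µg/kg. Tnfrsf17, the receptor BCMA, was under 1 CPM in every library. Sdc1, Xbp1 and Prdm1, which epithelial cells also express, had log2 changes of 0.20, 0.00 and 0.02 after 30 µg/kg, and Pigr one of 0.19 (SE 0.13, adjusted p = 0.420).

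In these libraries the ratio of Igha to Jchain was higher after 30 µg/kg than in vehicle, while neither gene was called. Jchain was at 102.0, 156.1 and 257.5 CPM in vehicle and at 120.9, 99.4 and 101.7 CPM after 30 µg/kg, with a log2 change of -0.68 (SE 0.34, adjusted p = 0.275 by edgeR). There were 8.20, 7.66 and 6.00 counts of Igha per count of Jchain in vehicle, and 9.88, 10.2 and 10.4 after 30 µg/kg. The ratio was between 4.73 and 6.44 after 3 µg/kg and between 6.54 and 7.02 after 10 µg/kg, so the 3 libraries of 30 µg/kg were the highest of the 12. A two-sided exact permutation test of 30 µg/kg against vehicle gave p = 0.1, the smallest that 3 against 3 libraries allow (adjusted p = 0.133 over the 4 ratios tested). Igkc per Jchain was 2.42, 2.78 and 2.16 in vehicle and 4.05, 3.95 and 3.88 after 30 µg/kg (the same exact permutation test, p = 0.1). Exons of Igha span 2668 bases and those of Jchain 2517, and protein-coding genes of like length had median log2 changes of 0.04 and 0.05 at that dose. For Igkc, which is shorter, that median was 0.80, and the part of length in the 2 ratios with Igkc was not tested. Heavy V counts per Igha count stayed between 0.177 and 0.220 in all 12 libraries (exact permutation test of 30 µg/kg against vehicle, p = 0.2).

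Genes around antibody production were mostly not called. In the list of IgA transport and induction, 11 of 13 genes were tested. Ccl28, an epithelial chemokine that attracts IgA plasma cells, rose after 10 µg/kg (log2 change 1.04, SE 0.13, adjusted p = 0.00211 by edgeR) and after 30 µg/kg (1.17, SE 0.13, adjusted p = 2.37e-04). It was at 38.4, 33.9 and 35.1 CPM in vehicle and at 65.6, 82.6 and 93.5 CPM after 30 µg/kg. Aldh1a1, an enzyme of retinoic acid synthesis, fell after 30 µg/kg (log2 change -0.59, SE 0.12, adjusted p = 0.00961 by edgeR). Of the 7 tested genes of germinal centres and follicles, only Ltb, a lymphotoxin subunit, was called after 30 µg/kg, where it was lower with a log2 change of -1.91 (SE 0.49, adjusted p = 0.0379 by edgeR). Of 10 tested genes of V(D)J recombination and class switching and 5 of the surrogate light chain and B cell receptor, edgeR called 0 at any dose. At an unadjusted p under 0.05 there were 0, 1 and 0 of the former and 1, 0 and 3 of the latter in the order of the doses. Rag1, Vpreb2 and Igll1, which act in B cell precursors, had 0 counts in all 12 libraries. Of 8 T cell genes, Cd3g was called after 30 µg/kg, higher, with a log2 change of 0.71 (SE 0.12, adjusted p = 0.00478 by edgeR). Of 4 AhR target genes, 0, 3 and 4 were called in the order of the doses, all higher; 2 had an unadjusted p under 0.05 by edgeR after 3 µg/kg. Of 7 enterocyte genes edgeR called 0 at any dose, with 0, 1 and 0 at an unadjusted p under 0.05. Ctrb1 and Pnlip, digestive enzymes of the pancreas, were called lower after 3 and after 30 µg/kg, and the acinar list summed to at most 8.98 CPM in any library.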

How the data were processed

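RNA was sequenced in 12 libraries. The deposited values are raw counts per gene, with 1 file per library and no normalisation. Per the labels, libraries were made with a commercial mouse kit and an added DNase step, and the submitters' processing notes name FastQC 0.11.3, Trimmomatic 0.33, TopHat2 2.1.0, SAMtools 1.2.0, HTSeq 0.6.1 and the build GRCm38. The strand setting and the annotation release are not given in the sources used here, so a segment and an overlapping transcript on the other strand cannot be told apart. Reads in no gene, in several genes or aligned to several places (see the report for their shares) entered neither library sizes nor tests. Of 46078 genes in the files, 45229 matched GENCODE M21 by identifier, which gave classes, positions, exon lengths and transcript sequences.

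Counts were fitted with edgeR 4.0.16 (R 4.3.3): filterByExpr, TMM scaling, and 1 quasi-likelihood model with 4 groups. Contrasts set every dose against vehicle and neighbouring doses against each other. The dose trend was a slope over the dose rank (0 to 3), given as the change over the whole range. P-values were adjusted over 15823 genes. Shares of counts have 95% Wilson intervals, and 3 counts served as the floor, equal to 0.135 to 0.257 CPM by library. Both cover counting error only, since the reads carry no molecular identifiers. Coding sequences were compared by global pairwise alignment. The fitting was tested on simulated data.

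Named segments were all constant and lambda V members, the 5 heavy V and the 5 kappa V members with the highest mean CPM, up to 10 members called against vehicle per dose, and the leading heavy V and kappa V segment of each library. Of other genes, Pigr and 9 plasma cell genes were named, and other lists (B cell, follicle, IgA transport, recombination, B cell receptor, AhR target, T cell, enterocyte, smooth muscle and pancreatic acinar genes) gave counts of calls and the genes called. Of the B cell list, 1 gene is not reported here. The members, lists and tests were chosen with earlier results of these data known. The alternatives were other scalings (RLE, upper-quartile, TMM without immunoglobulin genes), other filters, all annotated segments in place of the members, DESeq2 1.42.0, limma-voom (limma 3.58.1), a robust fit, a fit to the groups compared only, and leaving out each library.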

Additional observations from a re-analysis of the deposited data

How the results depend on the processing

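Counts of called segments were the least stable result. Without a filter on low counts they were 7 after 3 µg/kg, 15 after 10 µg/kg and 29 after 30 µg/kg against vehicle, 1 between 3 and 10 µg/kg, 15 between 10 and 30 µg/kg and 14 over dose rank. Of all 28360 genes then tested, 71, 215, 787, 43, 547 and 557 were called in that order. With DESeq2 the counts of segments were 4, 8, 16, 1, 10 and 12 in the same order, against 84, 262, 805, 43, 598 and 722 of 15823 genes. With at least 10 counts in every library the counts of segments were 0 after 3 µg/kg, 4 after 30 µg/kg, 0 between 10 and 30 µg/kg and 3 over dose rank, where fewer segments were tested. In the same comparisons 23, 603, 409 and 499 of 13002 genes were called. The robust fit called 4 after 30 µg/kg, and the fit to the groups compared only called 0 after 3 µg/kg and 10 between 10 and 30 µg/kg. Of all genes, the robust fit called 614 of 15823, and the fit to the groups compared only 6 of 15272 and 454 of 14833. After 30 µg/kg the latter called 4 lower and 4 higher, and DESeq2 called 11 lower and 5 higher. RLE scaling, upper-quartile scaling, TMM without immunoglobulin genes and limma-voom kept all 6 counts within 1.5 times. Apart from the filter on counts, the cause was not tested. Leaving out 1 library gave 0 to 2 called after 3 µg/kg, 0 to 4 after 10 µg/kg, 1 to 13 after 30 µg/kg, 0 to 0 between 3 and 10 µg/kg, 1 to 7 between 10 and 30 µg/kg and 3 to 13 over dose rank. After 30 µg/kg the count was 13, all lower, without vehicle replicate 1, 1 without vehicle replicate 3, 4 without vehicle replicate 2, 11 without replicate 1 of 3 µg/kg, 2 without replicate 1 and 4 without replicate 3 of 30 µg/kg. Of all genes, 655, 438, 433, 768, 474 and 461 were called in the same fits, with 16193 to 16283 tested. Over all fits without 1 library, 19 to 162 of all genes were called after 3 µg/kg, 45 to 198 after 10 µg/kg and 433 to 768 after 30 µg/kg. Between 3 and 10 µg/kg the range was 9 to 27, between 10 and 30 µg/kg 188 to 543, and over dose rank 297 to 640. No named segment changed sign while it was called; 54 of 1319 values of named segments changed sign while called in neither fit.

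With other scalings or all annotated segments, the log2 ratio of class sums to vehicle moved by less than the spread between libraries. Leaving out 1 of 3 libraries can hardly move a mean by more than that spread. Those fits are therefore no check against it, and only their ranges are given. Without 1 library the log2 ratio ran, for constant segments, from -0.91 to -0.42 after 3 µg/kg, from -1.17 to -0.58 after 10 µg/kg and from -0.36 to 0.13 after 30 µg/kg. For heavy V segments it ran from -0.65 to -0.17, from -1.04 to -0.49 and from -0.21 to 0.27, and for kappa V segments from -0.92 to -0.22, from -1.19 to -0.47 and from -0.39 to 0.31, in the same order of doses. For lambda V segments it ran from -0.83 to -0.43, from -0.64 to 0.23 and from -0.65 to 0.04. No paired analysis was possible because the labels carry no replicate numbers. Members with fewer than 3 counts in a library are not told apart from 0 at this depth.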
